A study of Homo sapiens with 6 samples.

Results

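The mRNAs described here encode the 5 subunits of the pyruvate dehydrogenase complex (PDHA1, PDHB, PDHX, DLAT and DLD) and the 4 subunits of succinate dehydrogenase (SDHA, SDHB, SDHC and SDHD). They were chosen by name as the structural subunits of these 2 mitochondrial enzymes, with earlier results of these data known. They are 9 of the 60676 genes in the count table. All 9 had enough reads to be tested. They were measured in GST pulldowns from lysed HEK 293 cells, a human embryonic kidney cell line that was grown in suspension. The bait was either GST alone, the control for RNA that sticks to the tag or the resin, or the FERRY complex fused to GST (GST-Ferry), and each bait gave 3 libraries. FERRY works downstream of RAB5, a GTPase of early endosomes, and is known to bind mRNAs, among them mRNAs for mitochondrial proteins. Both baits met lysate of the same line, with no other treatment, and RNA of the input lysate was not analysed here. A level is therefore an amount of mRNA recovered with a bait, relative to the other RNA of that library, and not an amount in the cell. The libraries are named GST 1 to GST 3 and GST-Ferry 1 to GST-Ferry 3, and the labels do not say whether they came from separate lysates, so p-values speak only for the spread among these 6 libraries, which may be technical.

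The pyruvate dehydrogenase complex turns pyruvate from glycolysis into acetyl-CoA for the tricarboxylic acid (TCA) cycle. PDHA1 and PDHB are the alpha and beta subunits of its decarboxylase (E1). DLAT is the acetyltransferase that forms the core of the complex (E2), PDHX is the protein that tethers DLD to that core, and DLD is the dihydrolipoyl dehydrogenase (E3), which other oxoacid dehydrogenases and the glycine cleavage system share. Succinate dehydrogenase works both in the TCA cycle and as complex II of the respiratory chain. SDHA carries the FAD cofactor and oxidises succinate, SDHB carries the iron-sulfur clusters, and SDHC and SDHD anchor the enzyme in the inner membrane and bind heme and ubiquinone. All 9 proteins are encoded in the nucleus, made in the cytosol and imported into mitochondria.

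In GENCODE release 29 coordinates (GRCh38), PDHA1 lies on chromosome X at chrX:19343893-19361705, PDHB on chromosome 3 at chr3:58427630-58433857, PDHX on chromosome 11 at chr11:34915829-35020591 and DLD on chromosome 7 at chr7:107890970-107931730. DLAT (chr11:112024814-112064390) and SDHD (chr11:112086773-112120013) are close neighbours on the same strand of chromosome 11. SDHA lies at chr5:218241-256700, SDHB at chr1:17018722-17054170 and SDHC at chr1:161314257-161375340. PDHB and SDHB are on the minus strand and the other 7 genes on the plus strand. The counts are given per gene and do not tell coding sequence from untranslated sequence.

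Library totals ran from 7390346 to 10466520 counts with GST. The totals with GST-Ferry were 6532665, 2671831 and 2454538. The member mRNAs held between 83 counts (SDHD in GST-Ferry 3) and 1173 counts (DLD in GST 2), so counting error was largest for SDHD in the 2 shallow GST-Ferry libraries. The mRNAs of the bait's own 5 subunits together took 0.0359% to 0.0504% of the counts with GST and 0.249%, 2.72% and 5.35% in GST-Ferry 1, 2 and 3. PPP1R21 (log2 fold change 8.83 ± 1.08, SE), C12orf4 (6.73) and TBCK (5.30) were high in all libraries read as GST-Ferry, which bears on the reading of the column names described under the processing. The other two subunit mRNAs were not, GATD1 at 0.12 and CRYZL1 at -0.50. GST 3 stood apart from the other GST libraries. Over all tested genes, its counts differed from those of GST 1 and GST 2 with a chi-square per degree of freedom of 50.3 and 47, against 10.9 between GST 1 and GST 2. Among the GST-Ferry libraries it was 15.5 and 23.2 between GST-Ferry 1 and the others, and 4.43 between GST-Ferry 2 and 3, the shallowest libraries. Of 7 genes known in HEK 293 cells, all 7 passed the filter, and of 6 marker genes of other cell types, only COL1A1 did (33.8 ± 14.6 CPM on GST and 53.6 ± 3.38 CPM on GST-Ferry), while CD3E and HBB had 0 counts. Calls of the members and counts of called related genes that change with GST 3 are given with and without it.

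None of the 9 mRNAs passed the test over all genes, although all 9 fitted fold changes were above 0. Those of DLAT and SDHC were below 0 without GST 1 (-0.10 and -0.05) or without GST 2 (-0.08 and -0.07), and that of PDHX without GST-Ferry 2 (-0.09). The test was edgeR's quasi-likelihood test, called at a p under 0.05 after Benjamini-Hochberg adjustment over 15546 genes. By that rule 0.624% of all tested genes were called, 92 of them higher and 5 lower with GST-Ferry. The median log2 fold change (GST-Ferry over GST) of the members was 0.39, against -0.03 over all tested genes and 0.02 over the 12864 protein-coding ones. A fold change above 0 was found for 47.8% of all tested genes. For 4 members (PDHA1, PDHB, SDHA and SDHB) every GST-Ferry library lay above every GST library in normalised read counts, where 14.9% of all tested genes did so. The same 4 members had an unadjusted p under 0.05 in the higher direction, against 11.3% of all tested genes. These 4 are the decarboxylase subunits of pyruvate dehydrogenase and the catalytic, soluble subunits of succinate dehydrogenase. The core, tether and E3 mRNAs and the membrane anchor mRNAs overlapped between the baits. This split by enzyme part rests on GST 3 and on the scale used, and was not tested. Without GST 3 the groups did not overlap for 8 of 9 members, all but PDHX, where 22.5% of all tested genes were higher without overlap. As transcript shares per length (TPM, given below), with all libraries, PDHA1 and SDHA overlapped between the baits and DLD did not. The highest GST and lowest GST-Ferry values were 105 and 103 TPM for PDHA1, 21.5 and 20.3 for SDHA, and 95.6 and 106 for DLD. For SDHD both values rounded to 48.3 TPM. The share of all tested genes without overlap in TPM is not given here, so no weight is put on these counts.

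**Figure D1:**
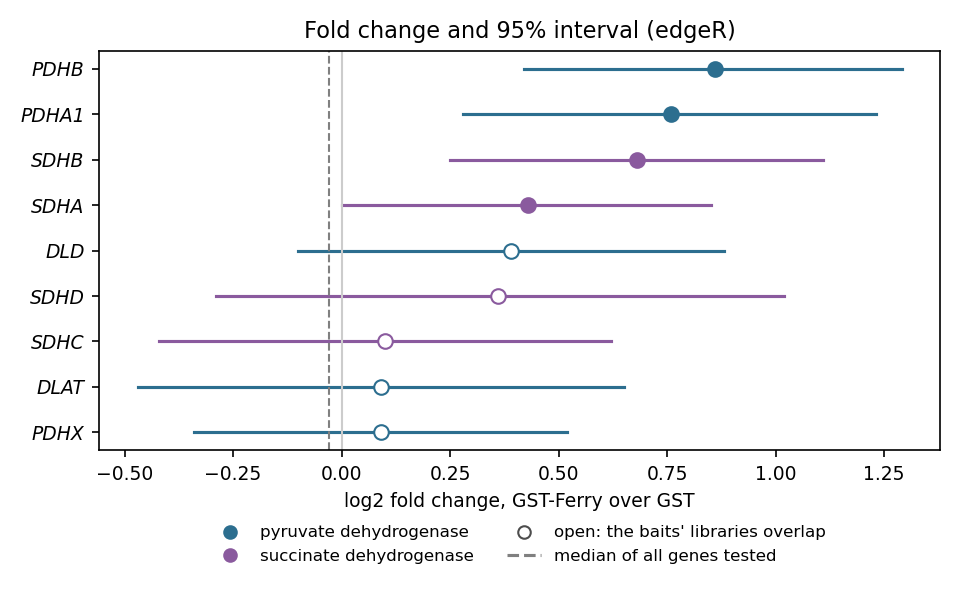
Fitted log2 fold change of each member mRNA, GST-Ferry over GST, with its 95% confidence interval; filled points mark members whose 3 GST-Ferry libraries all lie above the 3 GST libraries, and a line marks the median of all tested genes. PDHB (0.86), PDHA1 (0.76), SDHB (0.68) and SDHA (0.43) have intervals at or above 0, and the intervals of the other 5 reach below 0.

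Among the pyruvate dehydrogenase mRNAs, PDHB had the largest fold change. Its normalised read counts (CPM, counts scaled to a common library total and by TMM factors) were 64.5, 55.1 and 66.4 in GST 1, 2 and 3 and 95.4, 132 and 110 in GST-Ferry 1, 2 and 3. The lowest GST-Ferry library thus lay well above the highest GST library. The mean was 62 ± 6.06 CPM on GST and 113 ± 18.7 CPM on GST-Ferry (mean ± SD, n = 3 each), a log2 fold change of 0.86 ± 0.20 (SE) with an edgeR adjusted p of 0.0651. PDHA1, whose product pairs with that of PDHB in the E1 tetramer, had 95.2, 84.9 and 61.7 CPM on GST and 112, 152 and 147 CPM on GST-Ferry. The groups did not overlap, and GST 3 was the lowest of the GST libraries. PDHA1 averaged 80.6 ± 17.1 CPM on GST and 137 ± 21.7 CPM on GST-Ferry, a log2 fold change of 0.76 ± 0.22 with an edgeR adjusted p of 0.107.

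The mRNAs of the rest of the complex had smaller fold changes. PDHX, the tether for E3, had 41, 44.6 and 46.6 CPM on GST and 43.5, 55.3 and 41.8 CPM on GST-Ferry. Its groups overlapped almost wholly, and the log2 fold change was 0.09 ± 0.20, with a 95% interval from -0.34 to 0.52. DLAT, the E2 core enzyme, had 69.5, 71.4 and 137 CPM on GST and 92.9, 104 and 98.7 CPM on GST-Ferry. Here GST 3 was the highest of all 6 libraries, and the other GST libraries lay below all GST-Ferry libraries. The log2 fold change of DLAT was 0.09 ± 0.26, with a 95% interval from -0.47 to 0.65. DLD had 102, 107 and 158 CPM on GST and 137, 195 and 150 CPM on GST-Ferry. GST 3 again lay among the GST-Ferry libraries, and the log2 fold change was 0.39 ± 0.23 (edgeR adjusted p 0.364).

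Among the succinate dehydrogenase mRNAs, SDHB had the largest fold change. It had 70.2, 77.5 and 85.6 CPM on GST and 103, 128 and 143 CPM on GST-Ferry, so the groups did not overlap. The mean was 77.8 ± 7.71 CPM on GST and 125 ± 19.9 CPM on GST-Ferry, a log2 fold change of 0.68 ± 0.20 with an edgeR adjusted p of 0.111. SDHA, the flavoprotein, had 36.2, 33.3 and 33.9 CPM on GST and 41.4, 52.5 and 45.7 CPM on GST-Ferry. Its GST libraries lay closest together of all members (34.5 ± 1.49 CPM), and every GST-Ferry library was higher. The log2 fold change of SDHA was 0.43 ± 0.20 (edgeR adjusted p 0.254).

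The membrane anchor mRNAs overlapped between the baits, with GST 3 above the GST-Ferry libraries. SDHC had 64.1, 61.3 and 111 CPM on GST and 89.4, 82.7 and 79.6 CPM on GST-Ferry, and its log2 fold change was 0.10 ± 0.24, with a 95% interval from -0.42 to 0.62. SDHD had 20.7, 22.3 and 49.1 CPM on GST and 41.7, 39.4 and 36.1 CPM on GST-Ferry, and its log2 fold change was 0.36 ± 0.30, with a 95% interval from -0.29 to 1.02. In both mRNAs GST 3 was the highest of the 6 libraries, GST 1 and GST 2 were the lowest, and the GST-Ferry libraries lay close together in between.

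**Figure D2:**
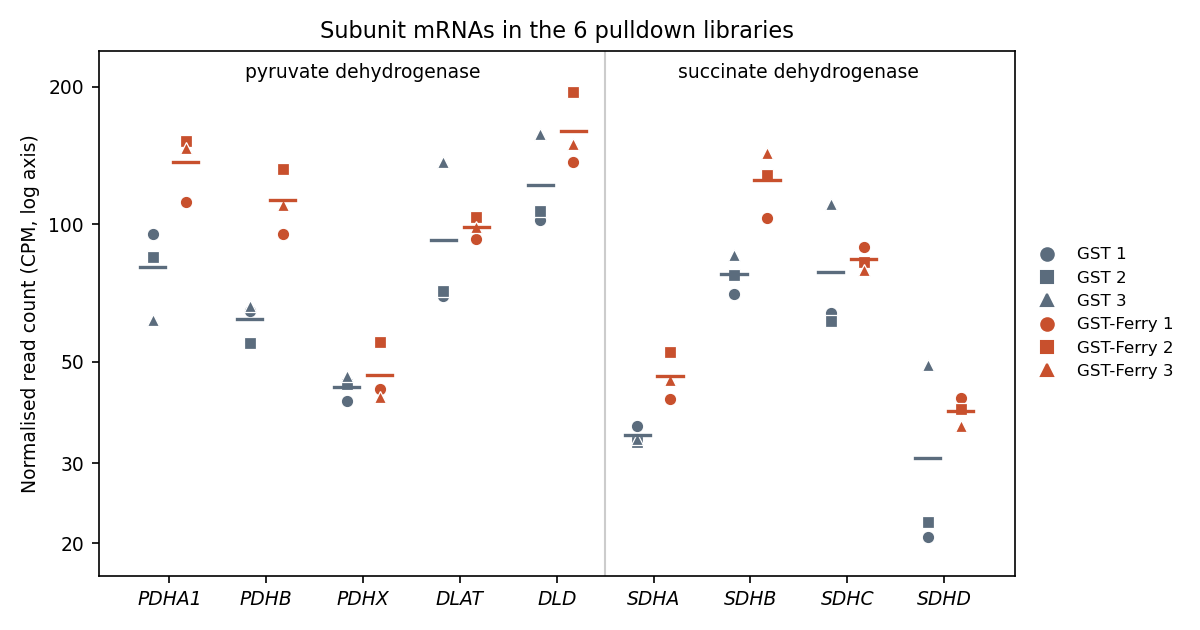
Normalised read counts (TMM-scaled CPM, log axis) of the 9 member mRNAs in each of the 6 libraries, with colour for the bait and marker shape for the library number; short bars are the means of the 3 libraries of a bait. GST 3 is the highest library for DLAT (137 CPM), SDHC (111 CPM) and SDHD (49.1 CPM) and the lowest for PDHA1 (61.7 CPM).

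Relative to the GST mean of each gene, GST 3 lay 0.40 to 0.79 higher on the log2 scale for DLAT, DLD, SDHC and SDHD, stood at -0.36 for PDHA1, and lay between -0.02 and 0.14 for the other 4 members. On the same scale, the mean log2 level of the pyruvate dehydrogenase mRNAs was -0.07, -0.10 and 0.17 in GST 1, 2 and 3 and 0.27, 0.66 and 0.43 in GST-Ferry 1, 2 and 3. For succinate dehydrogenase it was -0.19, -0.17 and 0.36 with GST and 0.37, 0.48 and 0.42 with GST-Ferry. On these means GST-Ferry 1, with the smallest share of bait mRNA, was the lowest GST-Ferry library, and GST-Ferry 2 the highest, whereas GST-Ferry 3 had the largest share of bait mRNA. As a share of all counts, the 5 pyruvate dehydrogenase mRNAs took 0.0406% ± 0.00252 with GST and 0.0538% ± 0.00538 with GST-Ferry. The 4 succinate dehydrogenase mRNAs took 0.0223% ± 0.00288 and 0.0286% ± 0.000228. For both sets the lowest GST-Ferry library lay above the highest GST library. Of single tested genes, 14.9% did so in CPM, and how often sums over other sets of genes do so was not tested.

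**Figure D3:**
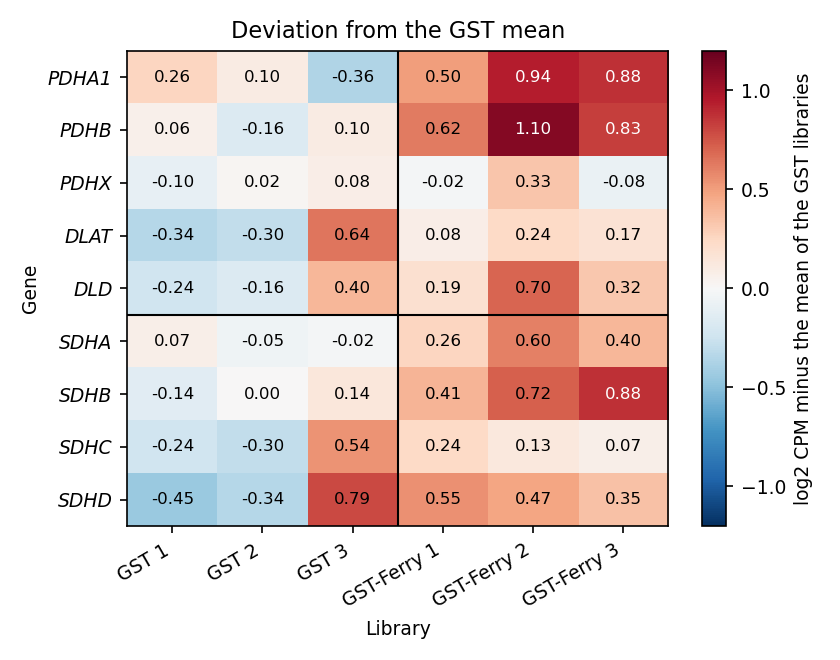
Log2 level of each member mRNA in each library relative to the mean of its 3 GST libraries, as a colour scale with members in rows and libraries in columns. GST 3 is at 0.40 or more for DLAT, DLD, SDHC and SDHD and at -0.36 for PDHA1, while the GST-Ferry columns are above 0 except for PDHX in GST-Ferry 1 and 3.

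Leaving out GST 3 moved 3 members past the threshold. In that fit PDHB rose with a log2 fold change of 0.88 (edgeR adjusted p 0.0122), SDHB with 0.72 (0.0216) and SDHD with 0.84 (0.0133). PDHA1 stayed short of it at 0.57 (edgeR adjusted p 0.0551), and so did DLD at 0.59 (0.0507), DLAT at 0.45 (0.0774), SDHC at 0.40 (0.119) and SDHA at 0.38 (0.18). The same fit called 7.99% of all tested genes, against 0.624% with GST 3 included. With GST 3 and GST-Ferry 1 both left out, 6 members rose, PDHA1, PDHB, DLAT, DLD, SDHB and SDHD, with log2 fold changes from 0.52 for DLAT to 1.02 for PDHB, and 18% of all tested genes were called. Whether GST 3 differs from the others in its lysate or in its handling was not tested.

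Ratios between subunits of the same enzyme within a library do not depend on how libraries are scaled. For 5 of the 16 pairs (31.2%) the ratios of the baits did not overlap, where 25.1% of all pairs of tested genes did not. PDHB over PDHX was 1.57, 1.23 and 1.43 in GST 1, 2 and 3 and 2.2, 2.4 and 2.64 in GST-Ferry 1, 2 and 3. PDHA1 over PDHX was 2.32, 1.9 and 1.33 with GST and 2.58, 2.75 and 3.51 with GST-Ferry. PDHB over DLAT (log2 difference 0.69) and PDHB over DLD (0.45) were also higher in all GST-Ferry libraries. The ratio of the E1 mRNAs, PDHA1 over PDHB, was 1.47, 1.54 and 0.929 with GST and 1.17, 1.15 and 1.33 with GST-Ferry. These overlapped only through GST 3, and GST 1 and GST 2 lay above all GST-Ferry libraries. Among the succinate dehydrogenase pairs, only SDHC over SDHD did not overlap with all 6 libraries, at 3.09, 2.75 and 2.26 with GST and 2.14, 2.1 and 2.2 with GST-Ferry. Each of these 5 pairs had a two-sided exact permutation p of 0.1, the smallest that 3 against 3 libraries allow, and an adjusted p of 0.32 over the 16 pairs. Without GST 3, 10 of the 16 pairs (62.5%) did not overlap, where 40.5% of all pairs of tested genes did not.

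Compared per length of exon sequence, as TPM (transcript shares scaled to a common total), SDHB was the most abundant member with both baits, at 127 ± 25.9 TPM with GST and 195 ± 23.8 TPM with GST-Ferry. With GST it was followed by DLD (90 ± 6.21 TPM), PDHA1 (76.4 ± 34.4), DLAT (72.5 ± 6.2), PDHB (53.4 ± 14.4), PDHX (47.5 ± 11.2), SDHD (40.1 ± 7.16), SDHC (21.3 ± 1.56) and SDHA (16.9 ± 5.17). Of the neighbours in this order, only SDHB and DLD, and SDHD and SDHC, did not overlap between libraries. With GST-Ferry the order was SDHB, PDHA1 (117 ± 12.9 TPM), DLD (117 ± 17.1), PDHB (92.1 ± 11), DLAT (78.9 ± 1.15), SDHD (53.5 ± 6.29), PDHX (48.2 ± 6.26), SDHC (23 ± 2.57) and SDHA (21.4 ± 1.61). There, PDHA1 and DLD, SDHD and PDHX, and SDHC and SDHA overlapped. These levels depend on the gene model. With the length of the representative transcript in place of all exons, PDHB had 106 TPM with GST and moved from the fifth place to the second, SDHD had 51.7 TPM and moved from the 7th place to the 5th, and SDHA had 37.8 TPM. SDHC, whose representative transcript of 13566 bases has a 3′ untranslated region of 12907 bases, had 14.4 TPM.

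GC content moved with the fold change across the transcriptome, and the values of the members are given beside it. Over the 15437 tested genes with a known sequence, the log2 fold change and the GC content of the transcript had a Spearman correlation of 0.53 across genes, which are not independent replicates. Across the 9 members the same correlation was 0.52, but the Pearson r was 0.33. For the GC content of the coding sequence alone the members' Spearman correlation was 0.12. With log2 transcript length it was -0.38 (Pearson r -0.57), against a Spearman correlation of -0.11 over the tested genes. In GC content of the representative transcript, the 4 members whose groups did not overlap in CPM are the 4 highest. They are SDHA at 55.1%, SDHB at 48.6%, PDHA1 at 46.2% and PDHB at 44.5%. In the coding sequence alone this order does not hold. There SDHD (53.3%) and SDHC (51.2%) lay above PDHA1 (50.5%), SDHB (49.8%) and PDHB (47.8%). DLD had the lowest GC content of the representative transcript, at 39.3%. Against the median of tested genes (48.6%), 7 of the 9 members were GC-poor. Compared with genes of like GC content, in bins of 2 percentage points, all 9 lay above the median of their bin and 8 above its upper quartile, SDHA being the exception. PDHB, at 0.86, was in a bin with a median of -0.13, and SDHA, at 0.43, in a bin with a median of 0.17 and an upper quartile of 0.44. In a fit that also took GC content and transcript length as offsets, 4 members rose, PDHB (log2 fold change 1.00, edgeR adjusted p 0.0221), SDHB (0.74, 0.045), PDHA1 (0.84, 0.0494) and DLD (0.70, 0.0494), with 2.14% of all tested genes called. The part of GC content in the differences between members was not tested beyond that fit.

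**Figure D4:**
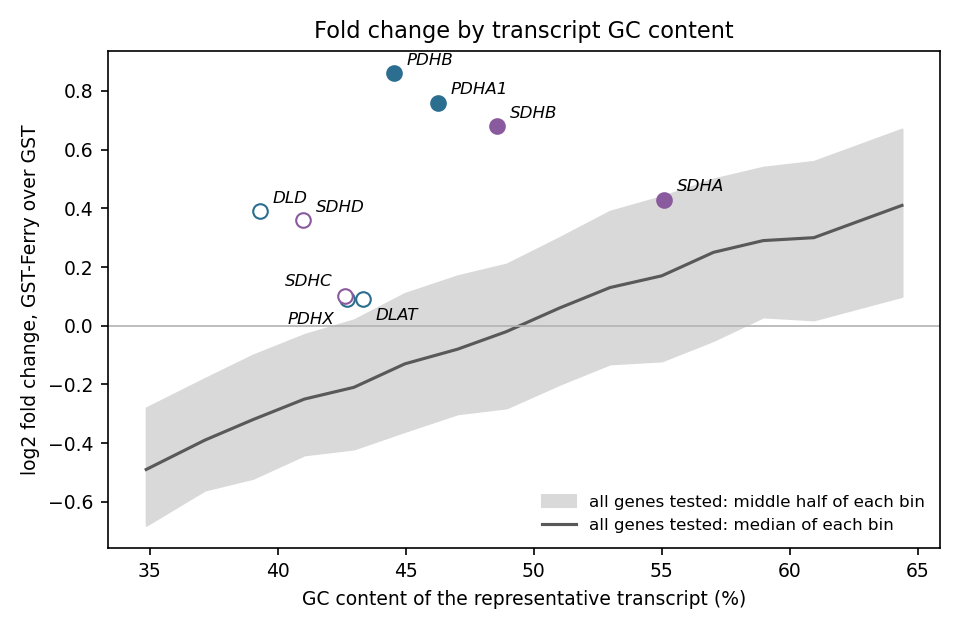
Log2 fold change (GST-Ferry over GST) against the GC content of the transcript in percent: the median and quartiles of all tested genes in bins of 2 percentage points, with the 9 members as labelled points. The bin medians climb from -0.49 in the bin of lowest GC content to 0.41 in the bin of highest, and all 9 members lie above the median of their bin.

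SDHA has near-identical copies in the genome, and how reads that match several places were counted is not given in the sources used here. SDHAP1 had 13.4 ± 4.63 CPM on GST and 8.25 ± 0.606 CPM on GST-Ferry, and SDHAP3 had 48.5 ± 17.7 and 35.5 ± 7.46 CPM. SDHAP4 had 30.4 ± 3.9 and 18.4 ± 4.52 CPM, and SDHAP2 had 0 counts. The log2 fold changes of the 3 expressed copies were -0.71, -0.44 and -0.70, opposite in sign to that of SDHA, and none passed the test with all 6 libraries (edgeR adjusted p 0.151 to 0.4). Without GST 3 all 3 fell, SDHAP1 by 0.95 (edgeR adjusted p 0.0314), SDHAP3 by 0.67 (0.0471) and SDHAP4 by 0.80 (0.0277) on the log2 scale. Summed with its copies, SDHA had 129, 151 and 100 CPM on GST and 117, 103 and 106 CPM on GST-Ferry, and these overlapped. The copies held 92.3 of the 127 CPM of this sum on GST and 62.2 of the 109 CPM on GST-Ferry. The overlap of the sum thus does not tell whether SDHA alone differed. The difference of SDHA between the baits is uncertain because the counting of reads shared with its copies is not given. PDHA2, the testis copy of PDHA1, had 0 counts, and SDHCP3 had 1 CPM on GST and 1.11 CPM on GST-Ferry and was not tested. The strand setting of the counting is not given either, and 12 annotated genes overlap the span of a member. Of these, 5 were tested and none was called. MAP3K15, a kinase gene on the strand opposite PDHA1, had 32.3 ± 5.19 CPM on GST and 47.9 ± 13.6 CPM on GST-Ferry (log2 fold change 0.55 ± 0.25, edgeR adjusted p 0.246). TIMM8B, an import chaperone gene on the strand opposite SDHD, had 40.2 ± 8.23 CPM on GST and 52.8 ± 11.5 CPM on GST-Ferry (log2 fold change 0.38 ± 0.23, edgeR adjusted p 0.392). Both were singled out after their values were seen, and how far their reads enter the counts of PDHA1 and SDHD was not tested.

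Genes that work with the 2 enzymes gave 1 called mRNA among 51 tested of 55 listed, where 0.624% of all tested genes were called. Of the 51, 33 had fold changes above 0 and 18 below, with a median of 0.21. The called mRNA was MDH2, the mitochondrial malate dehydrogenase of the TCA cycle. It had 153, 158 and 164 CPM on GST and 264, 441 and 460 CPM on GST-Ferry. It rose by 1.29 ± 0.23 on the log2 scale (edgeR adjusted p 0.042), and GST 3 did not stand apart in it. MDH2 missed the threshold when GST 1 (edgeR adjusted p 0.0508), GST 2 (0.101), GST-Ferry 2 (0.425) or GST-Ferry 3 (0.41) was left out, with fold changes of 1.13 to 1.27. All 11 of the other TCA cycle enzymes had fold changes above 0, with a median of 0.51, and the groups did not overlap for 7 of them, against 47.8% and 14.9% of all tested genes. Without GST 3, 9 of the 51 related mRNAs were called, all higher, and 4 of them were TCA cycle enzymes. That fit called 7.99% of all tested genes. IDH2, the NADP-linked isocitrate dehydrogenase, chosen after its values were seen, had the second lowest adjusted p of the TCA cycle enzymes, with 67.8 ± 11.2 CPM on GST and 130 ± 14 CPM on GST-Ferry (log2 fold change 0.94 ± 0.20, edgeR adjusted p 0.0547). Without GST 3 it rose by 0.78 on the log2 scale (edgeR adjusted p 0.013).

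The genes that supply or regulate pyruvate dehydrogenase, or share its build, had no called member with all 6 libraries, and 4 without GST 3. The shares of all tested genes called were 0.624% with all 6 libraries and 7.99% without GST 3. Of its kinases and phosphatases, 6 of 7 were tested, 3 with fold changes above 0 and 3 below, and the median was -0.01. PDK3, the kinase mRNA with the highest level, had 110 ± 33.7 CPM on GST and 106 ± 15.8 CPM on GST-Ferry (log2 fold change -0.04 ± 0.24, edgeR adjusted p 0.941). All 4 mRNAs of the mitochondrial pyruvate carrier and the lactate dehydrogenases had fold changes above 0, with a median of 0.30. LDHA, which turns pyruvate into lactate in the cytosol, had 282, 254 and 408 CPM on GST and 502, 797 and 606 CPM on GST-Ferry (log2 fold change 1.01 ± 0.24, edgeR adjusted p 0.0705). Its groups did not overlap, although GST 3 was again the highest GST library, and without GST 3 it rose by 1.22 on the log2 scale (edgeR adjusted p 0.00679). DLAT, PDHX and the other lipoyl proteins need lipoate, and the 8 genes of lipoate synthesis and attachment had a median of 0.16, with 4 above 0 and 4 below. GLRX5, an iron-sulfur cluster transfer protein, had the highest level over all 6 libraries, with 30.4 ± 3.68 CPM on GST and 43.5 ± 4.42 CPM on GST-Ferry (log2 fold change 0.52 ± 0.20, edgeR adjusted p 0.194). Without GST 3 it rose by 0.59 on the log2 scale (edgeR adjusted p 0.0462), and LIAS, lipoate synthase, was higher than GLRX5 on GST, at 35.2 ± 14.8 CPM. The other oxoacid dehydrogenase and glycine cleavage genes, partners of DLD or of a like build, had a median of 0.16 over 9 tested of 10. Fold changes were above 0 for 5 and below for 4. The groups did not overlap for 4, all higher, where 14.9% of all tested genes were. These were DHTKD1, OGDH (log2 fold change 0.58), DLST (0.44) and BCKDK. DHTKD1, an E1 enzyme of lysine breakdown, had 109 ± 4.66 and 121 ± 4.53 CPM (log2 fold change 0.16 ± 0.18, edgeR adjusted p 0.648). BCKDK, chosen after its values were seen, had a log2 fold change of 0.91 ± 0.23 (edgeR adjusted p 0.0759). Without GST 3 it rose by 0.70 (edgeR adjusted p 0.0233).

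The partners of succinate dehydrogenase had no called member with all 6 libraries, and 1 without GST 3, ETFB. Of all tested genes, 0.624% were called with all 6 libraries and 7.99% without GST 3. Of its 6 assembly factor and FAD supply genes, 2 had fold changes above 0 and 4 below, and the median was -0.16. FLAD1, the FAD synthase, had 55.2 ± 16.1 CPM on GST and 68.5 ± 12.8 CPM on GST-Ferry (log2 fold change 0.30 ± 0.24, edgeR adjusted p 0.521). The list of other enzymes that feed electrons to ubiquinone, with 2 ubiquinone-binding proteins, had a median of 0.18 over 7 tested of 9. ETFA, the alpha subunit of the electron transfer flavoprotein, had 166 ± 34.2 CPM on GST and 203 ± 34.1 CPM on GST-Ferry (log2 fold change 0.28 ± 0.22, edgeR adjusted p 0.494). Its beta subunit ETFB, chosen after its values were seen, had 27.5 ± 6.2 and 64.6 ± 17.9 CPM with no overlap (log2 fold change 1.21 ± 0.26, edgeR adjusted p 0.0522). ETFB rose without GST 3 (log2 fold change 1.01, edgeR adjusted p 0.0144) or without GST-Ferry 1 (1.44, 0.0411). The 13 mRNAs made inside mitochondria had a median of -0.01 and none was called. They took 0.45% to 0.931% of the counts. The nuclear RNA MALAT1 had 10800 ± 154 CPM on GST and 7110 ± 672 CPM on GST-Ferry (log2 fold change -0.61 ± 0.23, edgeR adjusted p 0.182), and its part in the values of the members was not tested.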

How the data were processed

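The authors deposited a table of raw read counts per gene. STAR 2.5.2b, bcl2fastq 2.19.1 and the GRCh38.p13 build are named per the submitters' processing notes, and per the labels' protocols ribosomal RNA was depleted and libraries were strand-specific. The counting program, annotation release and strand setting are not given in the sources used here. Columns are headed control or sample with a number, and were read as GST and GST-Ferry with the same number, an assumption that rests on the words. GENCODE release 29 gave coordinates, transcripts and GC content, and 58503 of the 60676 IDs matched it. Counts were filtered with filterByExpr (at least 10 counts, 15 in total), leaving 15546 genes and 99.5% to 99.7% of counts, scaled with TMM (0.923 to 1.1) and tested with edgeR 4.0.16 (R 4.3.3, quasi-likelihood, two-sided, bait only). A floor of 3 counts was 0.287 to 1.22 CPM, for counting error only. TPM used the union of exons. Libraries of the same bait differed by more than counting noise, so none was taken as a duplicate.

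Members and lists were chosen with earlier results of these data known. The text names all members, called genes of each list or else its most abundant tested gene, copies of at least 1 CPM and the 5 genes most like the members. Alternatives were RLE, library sizes alone, 2 other filters, DESeq2 1.42.0, limma-voom (limma 3.58.1), a replicate block, libraries left out, bait genes removed, offsets for GC content and length, and thresholds of 0.01 and 0.1. The procedure was also run on simulated counts in which no library was set apart as GST 3 was. The outcome is not given here, so that run says nothing about the calls of the members. Figures were drawn with matplotlib 3.10.9.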

Additional observations from a re-analysis of the deposited data

How the results depend on the processing

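None of the 9 members was called, and this held with RLE size factors, library sizes alone, a filter at 1 CPM, limma-voom, the replicate block and the bait genes removed. The count of called members was 1 without a filter on low counts, where 2.28% of all tested genes were called. It was 2 with DESeq2 (PDHB at adjusted p 0.00883 and PDHA1 at 0.0396), where 2.12% were called. With offsets for GC content and length it was 4 (2.14% called), and without GST 3 and GST-Ferry 1 it was 6 (18% called). At a threshold of 0.1 it was 1, and the share of all genes is not given there. Leaving out each library in turn gave 0 to 3, the 3 without GST 3, where 7.99% were called. The count of called related mRNAs, 1, became 0 with RLE, library sizes alone, limma-voom or a threshold of 0.01, 3 with the replicate block, 5 without a filter, with DESeq2, with the offsets or at a threshold of 0.1, and 18 without GST 3 and GST-Ferry 1. Leaving out each library gave 0 to 9. Over all genes, 97 of 15546 were called, against 11 with RLE, 7 with library sizes alone, 14 with limma-voom and 195 with the replicate block. The offsets gave 330, and leaving out GST 3 and GST-Ferry 1 gave 2746. Without GST 3 it was 1259, and without GST-Ferry 2 it was 0. DESeq2 called 691 of 32648 genes, and the fit without a filter called 744 of 32648. The sign turned where a library was left out for PDHX (-0.09 to 0.15), DLAT (-0.10 to 0.45), SDHC (-0.07 to 0.40) and PDK3 (-0.25 to 0.19), and for PDK3 also with limma-voom (0), the offsets (0.13) and without GST 3 and GST-Ferry 1 (0.08). The cause was not tested. No pairing by replicate number was seen. Deviations of same-numbered libraries had correlations of 0.246, 0.0793 and -0.133, and only GST 1 correlated best with its own number. With 3 libraries per bait, these correlations cannot show that pairing was absent. SDHD had the fewest counts of the members in GST-Ferry 2 and GST-Ferry 3 (99 and 83). Its spread was larger among the deeper GST libraries (SD 15.9 CPM) than with GST-Ferry (SD 2.81 CPM).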

Other observations

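The tested genes whose levels over the 6 libraries were most like the mean of the 9 members were ATP6V0B, a subunit of the vacuolar proton pump (Pearson r 0.9975), AP2B1, a subunit of the clathrin adaptor at the plasma membrane (0.996), the small GTPase RHOA (0.9953), the phosphatase DUSP3 (0.9943) and LITAF, a protein of late endosomes and lysosomes (0.9917). These are descriptions over 6 libraries that share scaling and depth, and 145 genes had an r above 0.95. None of the 5 passed the test, with edgeR adjusted p from 0.159 for RHOA to 0.497 for ATP6V0B. RHOA had 327 CPM on GST and 512 CPM on GST-Ferry, and AP2B1 had 491 and 587 CPM.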
